A study of Rattus norvegicus with 4 samples.

Results

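The cells described here are fibroblasts of 1 library that carried Ucma, Gdf10, Cilp and Fmod transcripts above the marker transcripts of 2 other fibroblast classes. They numbered 1265 of the 7264 fibroblast barcodes in that library (17.4%, exact Clopper-Pearson 95% interval 16.5% to 18.3%) and of 41444 barcodes in the series. The series measured single-cell RNA by droplet capture with 3' tags (10x Genomics, v3 chemistry) in Sprague Dawley rats, sex not determined. It had 4 groups with 1 library each, which were dorsal root ganglion at 8 weeks, sciatic nerve at 8 weeks, dorsal root ganglion at postnatal day 1 and sciatic nerve at postnatal day 1. The barcodes end in a library number from 1 to 4. Which number is which group is not stated in the sources used here, so libraries go by number and neither tissues nor ages were compared. The labels also describe a serum-containing medium for primary Schwann cell culture without stating if the cells that were sequenced went through it, or how many animals gave each library.

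Members were chosen by measured values. A barcode of library 1 needed at least 500 detected genes, at most 20% mitochondrial transcripts, and at least 10 of every 10000 unique molecular identifiers (UMIs, 1 per captured transcript) from Dcn, Lum and Pdgfra, which left the 7264 fibroblast barcodes. Among these the Ucma class had at least 3 UMIs summed over Ucma, Gdf10, Cilp and Fmod, and more of them than of either other set. The Myoc class was led in the same way by Myoc, Thbs4, Col9a1 and Steap4 and held 3827 barcodes (52.7%). The Pi16 class was led by Pi16, Tnfrsf11b, Ptx3 and Pcsk6 and held 1390 barcodes (19.1%), and 782 barcodes fell in none. All contrasts between these classes are descriptions within 1 library. They carry no test and no p-value, and their intervals cover counting error only.

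A peripheral nerve is wrapped in 3 layers of connective tissue, the outer epineurium, the perineurium around each fascicle and the endoneurium among the axons, and each layer has its own fibroblasts. Fibroblasts build the fibrillar collagen network and load it with small leucine-rich proteoglycans, which bind collagen fibrils and set their diameter. Ucma encodes a secreted Gla protein known from cartilage, Gdf10 a ligand of the TGF-beta superfamily also called BMP3b, Cilp a cartilage intermediate layer matrix protein that binds TGF-beta1, and Fmod fibromodulin, a small leucine-rich proteoglycan of collagen I fibrils.

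The promoters of the 4 genes are shown because these genes define the class and are counted together in each cell. They come from RefSeq on build GRCr8 and run 5' to 3' on the gene's strand from 250 bases before to 50 bases after the gene's start; all 4 genes matched by symbol. The windows are chr17:78212947-78213246 (minus strand) for Ucma, chr16:9243262-9243561 (plus strand) for Gdf10, chr8:74672198-74672497 (plus strand) for Cilp and chr13:48045317-48045616 (plus strand) for Fmod. Capitals mark the AP-1 motif TGACTCA.
Ucma: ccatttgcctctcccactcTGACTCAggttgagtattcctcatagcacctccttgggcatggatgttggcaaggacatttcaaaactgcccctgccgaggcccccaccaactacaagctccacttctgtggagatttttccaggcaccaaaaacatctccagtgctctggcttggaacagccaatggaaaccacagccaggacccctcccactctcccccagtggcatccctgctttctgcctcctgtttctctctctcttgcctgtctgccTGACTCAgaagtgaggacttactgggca
Gdf10: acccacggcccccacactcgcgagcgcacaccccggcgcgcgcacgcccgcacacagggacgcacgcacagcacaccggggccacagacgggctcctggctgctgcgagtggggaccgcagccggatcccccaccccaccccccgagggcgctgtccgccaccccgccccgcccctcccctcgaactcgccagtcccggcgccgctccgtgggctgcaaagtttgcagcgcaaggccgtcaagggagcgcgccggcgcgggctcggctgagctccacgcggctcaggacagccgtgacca
Cilp: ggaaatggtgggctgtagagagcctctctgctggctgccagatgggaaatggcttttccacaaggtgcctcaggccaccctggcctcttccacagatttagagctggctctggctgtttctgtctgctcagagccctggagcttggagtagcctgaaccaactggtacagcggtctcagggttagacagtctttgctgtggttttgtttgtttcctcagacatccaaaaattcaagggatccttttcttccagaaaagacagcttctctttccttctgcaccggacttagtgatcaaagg
Fmod: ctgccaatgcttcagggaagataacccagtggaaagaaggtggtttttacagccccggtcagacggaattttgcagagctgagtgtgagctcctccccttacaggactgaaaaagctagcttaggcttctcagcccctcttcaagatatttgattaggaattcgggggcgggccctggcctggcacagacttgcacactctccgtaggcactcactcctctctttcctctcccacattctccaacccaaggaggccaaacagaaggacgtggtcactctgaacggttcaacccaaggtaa

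The Ucma window held TGACTCA at 2 places, starting at positions -231 and 22 relative to the gene's start, and the other 3 windows held it on neither strand. Over all 33469 RefSeq rat promoter windows of this length, 4.63% held TGACTCA on either strand. TATAAA (in 14.2% of all windows), the SOX core ACAAAG (18.8%), the E-box CAGCTG (15.1%) and the SMAD palindrome GTCTAGAC (0.197%) were searched on both strands too and were in none of the 4 windows. The motifs do not overlap one another in these windows. The Gdf10 window stood apart in base composition, with 76% G or C, against 54.3% for Ucma, 52.7% for Fmod and 51% for Cilp. A letter match is no evidence of binding, and a missing match says only that the letters are not in the window.

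Library 1 held 10542 barcodes and 74425958 UMIs, and 9828 barcodes passed the gene and mitochondrial filters. The Ucma class carried 17226876 UMIs, the Myoc class 26766669 and the Pi16 class 13573406. Its cells were deep, with a median of 13484 UMIs (quartiles 10159 and 16843, range 1369 to 38374), against 6717 in the Myoc class and 9396 in the Pi16 class. Median genes per cell were 2842 in the Ucma class, 1931 in the Myoc class and 2578.5 in the Pi16 class. Because the rule asks for a fixed number of UMIs, deep cells enter more readily, and the part of depth in class membership was not tested. Shares of cells with a UMI are therefore given after each cell was thinned to 2000 UMIs, which kept 1259 Ucma class, 3712 Myoc class and 1366 Pi16 class cells. They stand beside the same share in 1356 thinned macrophage barcodes (median depth 3619 UMIs before thinning), which should lack fibroblast transcripts. Barcodes that passed the Dcn, Lum and Pdgfra threshold were not among these, so low shares there are partly set by that choice. Such shares cannot show how much free fibroblast RNA the members carry. Levels are CPM, a gene's UMIs scaled to the same total of UMIs in every class. Pairs of libraries shared 26 to 39 barcode sequences; 10 members had a barcode also present in another library, 1 of them as a fibroblast there.

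The members were fibroblasts by their general markers. All 9 fibroblast marker genes were measured, among them Col1a1, Col3a1, Fbln1 and Prrx1. The median log2 ratio of these 9 genes was 1.76 over the Myoc class, with 6 at least 2-fold higher and 0 lower, and 0.67 over the Pi16 class, with 3 higher and 0 lower. Cartilage and bone markers were at or near the bottom of the scale. The 13 of them summed to 7.60 CPM in the Ucma class, 104 CPM in the Myoc class and 5.38 CPM in the Pi16 class, and 2 of the 13 had 0 UMIs in the members. The class defined by these Gla protein and matrix genes thus had Col1a1 at 109551 CPM and Col9a2, a cartilage collagen chain, at 0.755 CPM.

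Markers of most other cell types were low in the members, and erythroid ones were the exception. Hba-a2, Hbb and Alas2 summed to 248 CPM in the Ucma class, 45.7 CPM in the Myoc class and 38.3 CPM in the Pi16 class. Of the 4270 Hba-a2 and Hbb UMIs in the members, 3792 lay in 1 member, and 899 members had none. The 10 macrophage markers summed to 232 CPM in the Ucma class, 521 CPM in the Myoc class and 521 CPM in the Pi16 class, beside 35338 CPM in macrophage barcodes. Those barcodes were chosen by C1qa, C1qb and C1qc, which are among the 10 markers, so their sum is high by that choice. The 10 Schwann cell markers found summed to 86.7, 100 and 93.0 CPM in the Ucma, Myoc and Pi16 classes, the 9 endothelial markers to 25.1, 46.9 and 26.4 CPM, the 9 mural markers to 129, 130 and 141 CPM, and the 8 neuronal markers to 39.2, 48.3 and 71.5 CPM. T or NK cell markers summed to 1.04, 4.26 and 1.18 CPM, neutrophil markers to 6.33, 6.501 and 0.737 CPM, and skeletal muscle markers to 14.9, 16.3 and 36.7 CPM, in the same order. In 45 members the markers of such cells together reached 20 of every 10000 UMIs, and macrophage markers alone did so in 34. The 6 adipocyte markers summed to 72.0 CPM in the members, nearly all of it from Car3 (33.6 CPM) and Cfd (38.0 CPM).

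The 4 genes of the rule are given as a description. Ucma stood at 754 CPM in the Ucma class, 32.7 CPM in the Myoc class and 60.7 CPM in the Pi16 class, with 2.65 CPM in macrophage barcodes. Gdf10 stood at 246, 14.2 and 38.8 CPM, Cilp at 250, 13.2 and 17.0 CPM, and Fmod at 397, 9.15 and 9.65 CPM in the same 3 classes. At 2000 UMIs per cell, 43.8% of members had a Ucma UMI, against 3.64% of Myoc class and 5.34% of Pi16 class cells. Fmod was met in 28.6% of members, 0.835% of Myoc class and 0.878% of Pi16 class cells. The genes of the other sets were not absent from the members. Thbs4 stood at 117 CPM in the Ucma class, below 1851 CPM in the Myoc class and above 46.9 CPM in the Pi16 class, and Pi16 itself at 61.6 CPM in the Ucma class, 81.8 CPM in the Myoc class and 2417 CPM in the Pi16 class.

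**Figure D1:**
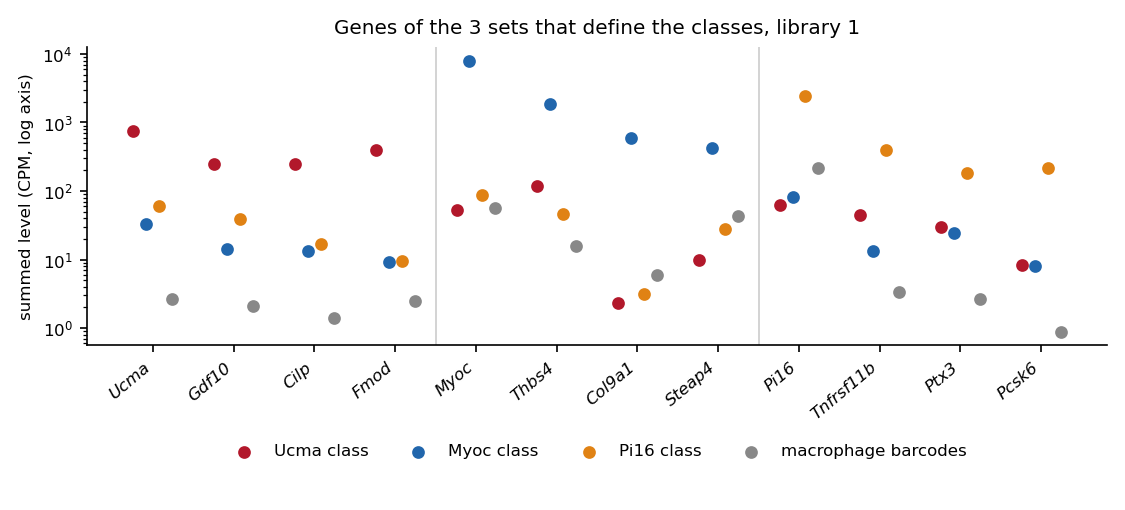
Summed level of the 12 genes that define the 3 fibroblast classes, in CPM on a log axis, in library 1. Each point is 1 class. Macrophage barcodes, chosen to be low in Dcn, Lum and Pdgfra, show the level in cells that should lack the genes. Ucma, Gdf10, Cilp and Fmod are high in the Ucma class because the rule chose them so.

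Few members carried the whole set. All 4 genes were detected in 173 members, 3 in 421, 2 in 466 and 1 in 205. Without thinning, Gdf10 was found in 1069 members (84.5%), Ucma in 830 (65.6%), Fmod in 614 (48.5%) and Cilp in 579 (45.8%). The median member had 14 UMIs of the set, with 1 of the Myoc set and 1 of the Pi16 set. The Myoc set reached 3 or more UMIs in 367 members and the Pi16 set in 271, so 556 members (44.0%) carried another set at that level. Myoc and Pi16 themselves were higher in macrophage barcodes than in the members, and what this background adds to these counts was not tested. Those mixed members were deeper, with a median of 15465.5 UMIs, against 12368 in the 709 other members. At the edge of the rule, 80 members had exactly 3 UMIs of the set and 55 barcodes outside had exactly 2, above both other sets. Wisp2 stood at 428 CPM just inside and 480 CPM just outside, Col1a1 at 86621 and 83031 CPM, and Efemp1 at 88.1 and 124 CPM, so for these 3 genes both sides of the threshold lay nearer to each other than to the Myoc class (Wisp2 61.2, Col1a1 28549 and Efemp1 481 CPM).

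The transcript profile of the class was set against each of the other classes over all genes with at least 20 summed UMIs on one side, leaving out the rule genes and mitochondrial genes. Over the Myoc class, 815 of 11592 genes were at least 2-fold higher (7.03%) and 1440 at least 2-fold lower (12.4%). Over the Pi16 class, 551 of 10779 were higher (5.11%) and 954 lower (8.85%). The median gene lay at -0.107 log2 over the Myoc class and -0.272 over the Pi16 class, beside the large share of UMIs taken by Col1a1 in the members. With ratios centred on that median, the split became 939 higher and 1265 lower over the Myoc class (42.6% higher, against 36.1% uncentred), and 771 higher and 589 lower over the Pi16 class (56.7% higher, against 36.6% uncentred). Of 10684 genes measured in both contrasts, 268 were higher than in both (2.51%) and 306 lower than in both (2.86%). The 782 barcodes of no class are in neither contrast. Some genes named below stood there near the members, such as Il33 (122 CPM there, 117 CPM in the members), Tnc (65.7 and 63.3 CPM) and Gas6 (1044 and 1080 CPM). Others did not, such as Wisp2 (218 and 746 CPM) and Dpp4 (63.4 and 5.05 CPM).

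**Figure D2:**
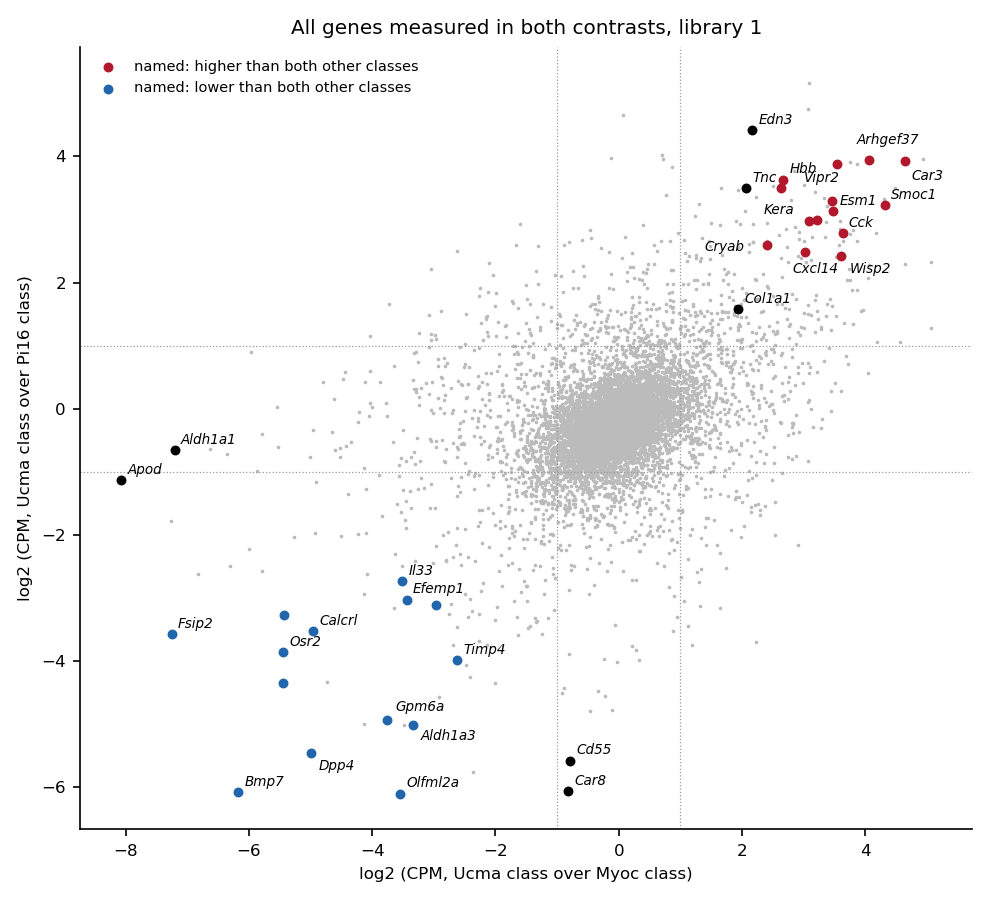
Log2 ratio of CPM in the Ucma class over the Myoc class (x) and over the Pi16 class (y) for every gene measured in both contrasts, with 2-fold lines dotted. Red and blue points are the genes highest and lowest against both classes by the naming rule, and black points are other genes in the text; Bmp7, Dpp4 and Osr2 lie at the lower left and Wisp2, Cck and Car3 at the upper right.

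The genes highest against both other classes included secreted and matrix-bound products. Wisp2, a matricellular protein of the CCN family also called CCN5, stood at 746 CPM in the Ucma class, 61.2 CPM in the Myoc class and 140 CPM in the Pi16 class (log2 ratios 3.61 and 2.42). It was found in 57.7% of thinned members, 3.15% of Myoc class cells, 10.9% of Pi16 class cells and 0.885% of macrophage barcodes. In single members its level ran from 0 to 52.2 per 10000 UMIs with a median of 5.09, and the median in both other classes was 0. Cxcl14, a chemokine made by many fibroblasts and epithelia, stood at 393 CPM in the Ucma class, 48.5 CPM in the Myoc class and 70.5 CPM in the Pi16 class (3.02 and 2.48). Cck, the precursor of the peptide cholecystokinin, stood at 186, 14.98 and 27.0 CPM in the Ucma, Myoc and Pi16 classes (3.63 and 2.78) and was met in 21.8% of thinned members, against 1.08% and 2.64% in the Myoc and Pi16 classes and 0.369% of macrophage barcodes. Its 3201 UMIs were spread over 585 members, with 57 in the richest.

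Esm1, the proteoglycan endocan, stood at 155 CPM in the Ucma class, 13.9 CPM in the Myoc class and 17.7 CPM in the Pi16 class (3.48 and 3.13). Kera, the corneal and tendon proteoglycan keratocan, stood at 64.2, 6.87 and 8.10 CPM in the same classes (3.22 and 2.99), and its 1106 UMIs came from 192 members. Smoc1, a secreted matrix protein known to oppose BMP signals, stood at 8.94, 0.448 and 0.958 CPM (4.32 and 3.22), and was met in 1.27% of thinned members. Secreted products were thus joined by intracellular ones. Car3, a carbonic anhydrase abundant in fat and slow muscle, stood at 33.6 CPM in the Ucma class, 1.34 CPM in the Myoc class and 2.21 CPM in the Pi16 class (4.64 and 3.92), from 203 members. Ndufa4l2, a mitochondrial protein known as a hypoxia-inducible target, stood at 119, 19.3 and 10.5 CPM (2.63 and 3.5), and the small heat shock protein gene Cryab at 66.9, 12.7 and 11.1 CPM (2.40 and 2.60).

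Vipr2, a receptor for the peptides VIP and PACAP, was met in 1.91% of thinned members, 0.108% of Myoc class cells, 0.146% of Pi16 class cells and 0.0737% of macrophage barcodes. It stood at 13.1 CPM in the Ucma class, 1.12 CPM in the Myoc class and 0.884 CPM in the Pi16 class (3.54 and 3.88). Arhgef37, a guanine nucleotide exchange factor gene, stood at 11.3, 0.672 and 0.737 CPM (4.07 and 3.93), and was met in 2.62% of thinned members. Pla2g12b, of the secreted phospholipase A2 family, stood at 9.81, 1.16 and 1.25 CPM (3.08 and 2.97), and was met in 1.35% of thinned members. Mup4 (23.9, 2.17 and 2.43 CPM) belongs to the major urinary protein family, whose near-identical copies can share reads, so its level is uncertain. The naming rule also returned Hbb, a haemoglobin chain, at 133 CPM in the Ucma class, 21.0 CPM in the Myoc class and 10.8 CPM in the Pi16 class, but 2127 of its 2293 UMIs (92.8%) lay in 1 member. Without that member the log2 ratios of Hbb were -1.12 and -0.16, so its level in the class rests on that member. The last of the 15 genes had an identifier without a gene name.

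**Figure D3:**
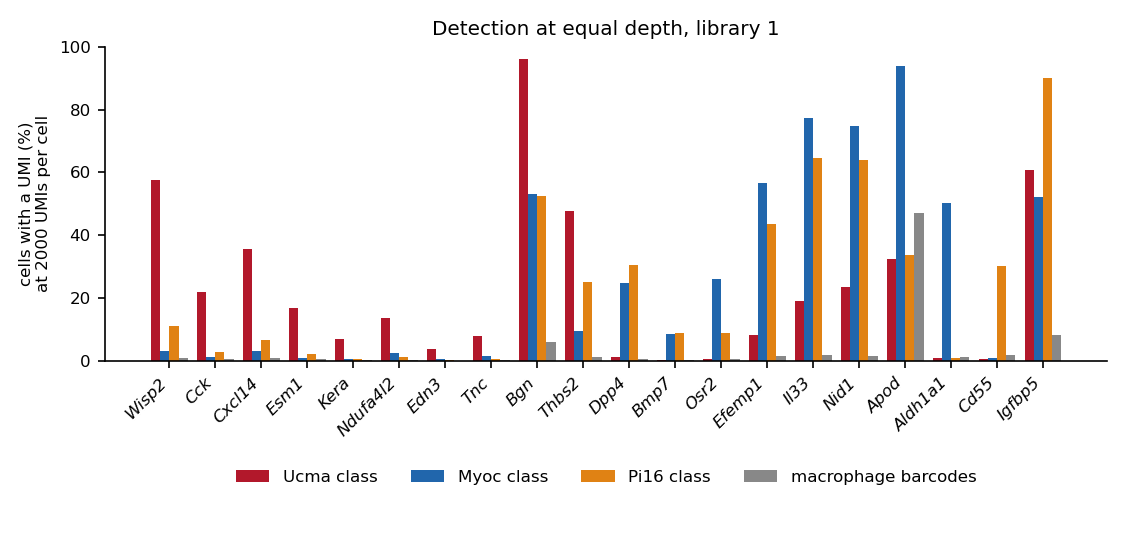
Share of cells with at least 1 UMI of each gene after every cell was thinned to 2000 UMIs, for the 3 fibroblast classes and for macrophage barcodes of library 1. Wisp2 (57.7%), Cxcl14 (35.7%) and Cck (21.8%) were met mostly in the Ucma class, and Il33, Efemp1 and Nid1 mostly in the other 2 fibroblast classes.

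The genes lowest in the Ucma class against both others included signals, receptors and enzymes that both other classes carried. Bmp7, a bone morphogenetic protein ligand, had 11 UMIs in all 1265 members (0.639 CPM), against 46.1 CPM in the Myoc class and 43.0 CPM in the Pi16 class (-6.18 and -6.07). Dpp4, the cell surface peptidase CD26 used as a marker of fibroblast progenitors, stood at 5.05 CPM in the Ucma class, 161 CPM in the Myoc class and 221 CPM in the Pi16 class (-5.00 and -5.45). It was met in 1.19% of thinned members, 24.7% of Myoc class cells and 30.4% of Pi16 class cells, and in 0.442% of macrophage barcodes. Osr2, a zinc finger transcription factor of limb and palate mesenchyme, stood at 3.54, 154 and 51.2 CPM in the Ucma, Myoc and Pi16 classes (-5.44 and -3.85).

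Il33, an alarmin cytokine of stromal nuclei, stood at 117 CPM in the Ucma class, 1336 CPM in the Myoc class and 775 CPM in the Pi16 class (-3.52 and -2.73). It was still met in 19.1% of thinned members, against 77.4% and 64.5% in the Myoc and Pi16 classes. Efemp1, the elastic fibre-associated protein fibulin-3, stood at 44.3, 481 and 360 CPM (-3.44 and -3.02). Calcrl, the receptor through which the neuropeptide CGRP and adrenomedullin act, stood at 2.67, 82.7 and 30.7 CPM (-4.95 and -3.52). The retinoic acid-synthesising enzyme gene Aldh1a3 stood at 2.38, 24.1 and 76.8 CPM (-3.34 and -5.01), and Timp4, a metalloproteinase inhibitor, at 3.02, 18.6 and 47.7 CPM (-2.62 and -3.98).

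The remaining named genes of this group were low-abundance in the members. Lvrn, an aminopeptidase, had 8 UMIs there (-5.44 and -4.34), Gpm6a, a neuronal membrane glycoprotein, had 16 (-3.77 and -4.93), Olfml2a, an olfactomedin-like secreted protein, had 11 (-3.54 and -6.10), Sbsn (suprabasin) had 42 (-5.43 and -3.26) and the phosphatase gene Ubash3b had 36 (-2.97 and -3.12). Fsip2 had 2 UMIs in the members, for log2 ratios of -7.25 (counting interval -10.89 to -5.98) and -3.57 (-7.27 to -2.16). The last of the 15 genes had an identifier without a gene name.

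Against the Myoc class alone, the highest further genes included Spock2, a matrix proteoglycan of the testican family (10.9 CPM in the Ucma class, 0.598 CPM in the Myoc class, log2 4.19), the alcohol dehydrogenase gene Adh1 (25.1 and 1.61 CPM, 3.96), Lgi1 (12.5 and 0.822 CPM, 3.92) and the actin-associated Pdlim3 (19.0 and 1.38 CPM, 3.78). The lowest was Apod, apolipoprotein D, at 210 CPM in the Ucma class and 56541 CPM in the Myoc class (-8.07), with 461 CPM in the Pi16 class. Per cell, the median was 1.78 Apod UMIs per 10000 in the members, 595 in the Myoc class and 1.83 in the Pi16 class. Thinned, Apod was met in 32.2% of members and in 47.1% of macrophage barcodes, so its presence in members is at or below the background share. Aldh1a1, another retinoic acid-synthesising enzyme, stood at 2.67 CPM in the Ucma class, 393 CPM in the Myoc class and 4.20 CPM in the Pi16 class (-7.20 and -0.65). Cttnbp2, a cortactin-binding protein gene, had 10 UMIs in the members (-7.26). Dnah11, an axonemal dynein gene, and Col26a1, a collagen, had 2 UMIs each, for log2 ratios over the Myoc class of -7.77 (-11.41 to -6.50) and -6.97 (-10.61 to -5.70).

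Against the Pi16 class alone, Edn3, the peptide endothelin 3, was the highest further gene, at 22.1 CPM in the Ucma class, 4.93 CPM in the Myoc class and 1.03 CPM in the Pi16 class (2.16 over Myoc, 4.42 over Pi16). Tnc, the tendon and wound matrix protein tenascin C, stood at 63.3, 15.2 and 5.60 CPM (2.06 and 3.5). Fam180a (3.38 over the Pi16 class), the small GTPase gene Rhod (3.25) and the surface sialoglycoprotein gene Cd24 (3.13) followed. The lowest were Kcnip4, a potassium channel-interacting protein (0.348 CPM in the Ucma class and 26.6 CPM in the Pi16 class, -6.25), Car8, a carbonic anhydrase-related protein (0.871 and 58.0 CPM, -6.06), Cd55, a complement decay-accelerating protein (3.89 and 185 CPM, -5.57), the aminopeptidase gene Xpnpep2 (0.813 and 22.4 CPM, -4.78) and Tek, the angiopoietin receptor (2.21 and 60.0 CPM, -4.76). In the Myoc class Cd55 was 6.72 CPM, Car8 1.53 CPM and Tek 2.39 CPM, values near those of the members.

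The matrix made by the class was next described by gene lists, each read against the share of all measured genes given above. Among fibril and filament collagens, 15 of 18 listed genes were measured. Over the Myoc class 5 were higher and 3 lower (median 0.32), and over the Pi16 class 5 were higher and 2 lower (median 0.48). Col1a1 and Col1a2, the chains of collagen I, were higher than in both. Col1a1 stood at 109551 CPM in the Ucma class, 28549 CPM in the Myoc class and 36799 CPM in the Pi16 class (1.94 and 1.57), and Col1a2 at 1150, 305 and 413 CPM (1.92 and 1.48). In single members Col1a1 ran from 14.1 to 2847 UMIs per 10000 with a median of 1078, against medians of 209 in the Myoc class and 223 in the Pi16 class. The lower quartile of the members, 664, was above the upper quartiles of the Myoc class (296) and the Pi16 class (424). Col3a1 differed less, at 52502, 31742 and 33108 CPM (0.73 and 0.67). Col5a3 (70.1, 338 and 212 CPM) and Col6a6 (5.40, 18.5 and 22.3 CPM) were lower than in both. Col14a1, a fibril-associated collagen, set the class apart from the Myoc class (544 and 77.8 CPM, 2.81) and not from the Pi16 class (663 CPM, -0.29).

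Small leucine-rich proteoglycans other than Fmod and the gate genes Lum and Dcn had no measured gene 2-fold lower. Over all measured genes 12.4% were lower over the Myoc class and 8.85% over the Pi16 class, so 0 of 8 is close to those shares. Of 8 measured genes, 5 were higher and 0 lower over the Myoc class (median 1.34), and 3 were higher and 0 lower over the Pi16 class (median 0.90). Bgn, biglycan, stood at 2517 CPM in the Ucma class, 678 CPM in the Myoc class and 818 CPM in the Pi16 class (1.89 and 1.62). Ecm2, a related matrix protein, stood at 216, 41.5 and 116 CPM (2.38 and 0.89), and Omd, osteomodulin, at 4.53, 1.76 and 2.21 CPM (1.37 and 1.03). Dcn, decorin, which served as a gate gene, stood at 11778 CPM in the Ucma class, 32306 CPM in the Myoc class and 13636 CPM in the Pi16 class, so this proteoglycan did not follow the list.

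Tendon and ligament genes were also mostly higher, with 5 of 8 measured genes higher and 0 lower over the Myoc class (median 1.31) and 4 of 7 higher and 1 lower over the Pi16 class (median 1.23). Thbs2, thrombospondin 2, stood at 377 CPM in the Ucma class, 66.6 CPM in the Myoc class and 161 CPM in the Pi16 class (2.50 and 1.23). Fibin stood at 84.9, 19.8 and 33.0 CPM (2.10 and 1.36) and the Wnt modulator gene Dkk3 at 64.4, 26.7 and 22.9 CPM (1.27 and 1.49). Postn, periostin, split the other classes, at 450 CPM in the Ucma class, 178 CPM in the Myoc class and 2625 CPM in the Pi16 class (1.34 and -2.54). The shorter tendon marker list also held Scx, Mkx and Tnmd, the tendon lineage factors and tenomodulin, and only Kera and Fibin of its 5 genes had the 20 UMIs needed to be measured.

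The cartilage list moved the other way against the Myoc class. Of its 20 measured genes, 1 was higher and 12 were lower over the Myoc class (median -2.01), and of 13 measured over the Pi16 class, 5 were higher and 1 lower (median 0.29). Sox9, the chondrogenic regulator that also marks endoneurial fibroblasts, stood at 2.03 CPM in the Ucma class, 93.8 CPM in the Myoc class and 3.09 CPM in the Pi16 class (-5.53 and -0.61). Sox5, its partner in cartilage, stood at 1.68, 24.2 and 5.45 CPM (-3.85 and -1.70), and Cytl1, a secreted protein known from cartilage, at 1.39, 8.59 and 2.36 CPM. Col11a2 was the cartilage gene higher than in both, at 3.19, 1.38 and 1.03 CPM (1.21 and 1.63). Mgp, matrix Gla protein, an inhibitor of calcification, stood at 2747 CPM in the Ucma class, 2428 CPM in the Myoc class and 1132 CPM in the Pi16 class (0.18 and 1.28).

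Genes of mineral and phosphate handling were few. Over the Myoc class 3 of 11 measured genes were higher and 3 lower (median 0.55), and over the Pi16 class 4 of 10 were higher and 1 lower (median 0.48). Gas6, another Gla protein and the ligand of TAM receptors, stood at 1080 CPM in the Ucma class, 219 CPM in the Myoc class and 372 CPM in the Pi16 class (2.30 and 1.54). Alpl, tissue-nonspecific alkaline phosphatase, stood at 14.5, 1.42 and 2.21 CPM (3.35 and 2.72), from 91 members, 10 of which held 40% of its UMIs. Vkorc1, part of the vitamin K cycle that Gla proteins need, stood at 2297, 1443 and 1084 CPM (0.67 and 1.08). Ankh, a phosphate and citrate transporter, was lowly counted (1.86, 1.27 and 0.589 CPM). Enpp2, autotaxin, was lower than in both, at 0.871, 48.1 and 5.16 CPM (-5.79 and -2.57).

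Basement membrane genes were mostly lower over the Myoc class and split over the Pi16 class. Of 16 measured, 1 was higher and 10 lower over the Myoc class (median -1.28), and 3 were higher and 5 lower over the Pi16 class (median -0.57). Nid1, nidogen 1, which links laminin to collagen IV, stood at 134 CPM in the Ucma class, 833 CPM in the Myoc class and 596 CPM in the Pi16 class (-2.64 and -2.16). Col18a1 stood at 20.03, 190 and 48.1 CPM (-3.25 and -1.26), and Lama2, the laminin chain of Schwann cell and muscle basement membranes, at 88.4, 336 and 159 CPM (-1.93 and -0.84). Col15a1 stood at 358, 1723 and 104 CPM (-2.27 and 1.78), so the Ucma class lay between the other classes for this gene. Smoc1 was the gene of this list higher than in both.

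Elastic fibre genes stood higher over the Myoc class than over the Pi16 class. Over the Myoc class 8 of 20 were higher and 3 lower (median 0.64), and over the Pi16 class 3 were higher and 6 lower (median 0.01). Eln, elastin, stood at 969 CPM in the Ucma class, 89.0 CPM in the Myoc class and 799 CPM in the Pi16 class (3.44 and 0.28). Mfap4 stood at 14.7, 1.12 and 8.99 CPM (3.72 and 0.71) and Ltbp2, a latent TGF-beta binding protein family member, at 8.13, 2.17 and 1.03 CPM (1.91 and 2.98). Fbn1, fibrillin 1, stood at 957 CPM in the Ucma class, 1370 CPM in the Myoc class and 5559 CPM in the Pi16 class (-0.52 and -2.54). The crosslinking enzyme gene Lox was higher than in both, at 1206, 479 and 503 CPM (1.33 and 1.26).

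Among matrix glycoproteins and hyaluronan genes, 8 of 21 were higher and 6 lower over the Myoc class (median 0.22), and 4 were higher and 6 lower over the Pi16 class (median -0.19). Ctgf, the CCN family member CCN2, stood at 1253 CPM in the Ucma class, 138 CPM in the Myoc class and 541 CPM in the Pi16 class (3.18 and 1.21). Sparc, a collagen-binding matricellular protein, stood at 48637, 17090 and 20875 CPM (1.51 and 1.22). Has2 and Tnfaip6, a hyaluronan synthase and a hyaluronan-binding protein, were lower than in both, Has2 at 30.8, 117 and 115 CPM and Tnfaip6 at 308, 740 and 865 CPM. Vit, vitrin, stood at 3.77, 31.6 and 5.23 CPM (-3.07 and -0.47). Among matrix proteases and their inhibitors, 6 of 32 were higher and 7 lower over the Myoc class (median -0.22), and 2 of 30 were higher and 8 lower over the Pi16 class (median -0.24). Adamts16 (0.348, 9.23 and 6.999 CPM) and the plasminogen activator gene Plat (47.2, 98.6 and 189 CPM) were lower than in both, and Mmp3, stromelysin 1, stood at 11.3, 2.80 and 7.51 CPM (2.01 and 0.59).

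**Figure D4:**
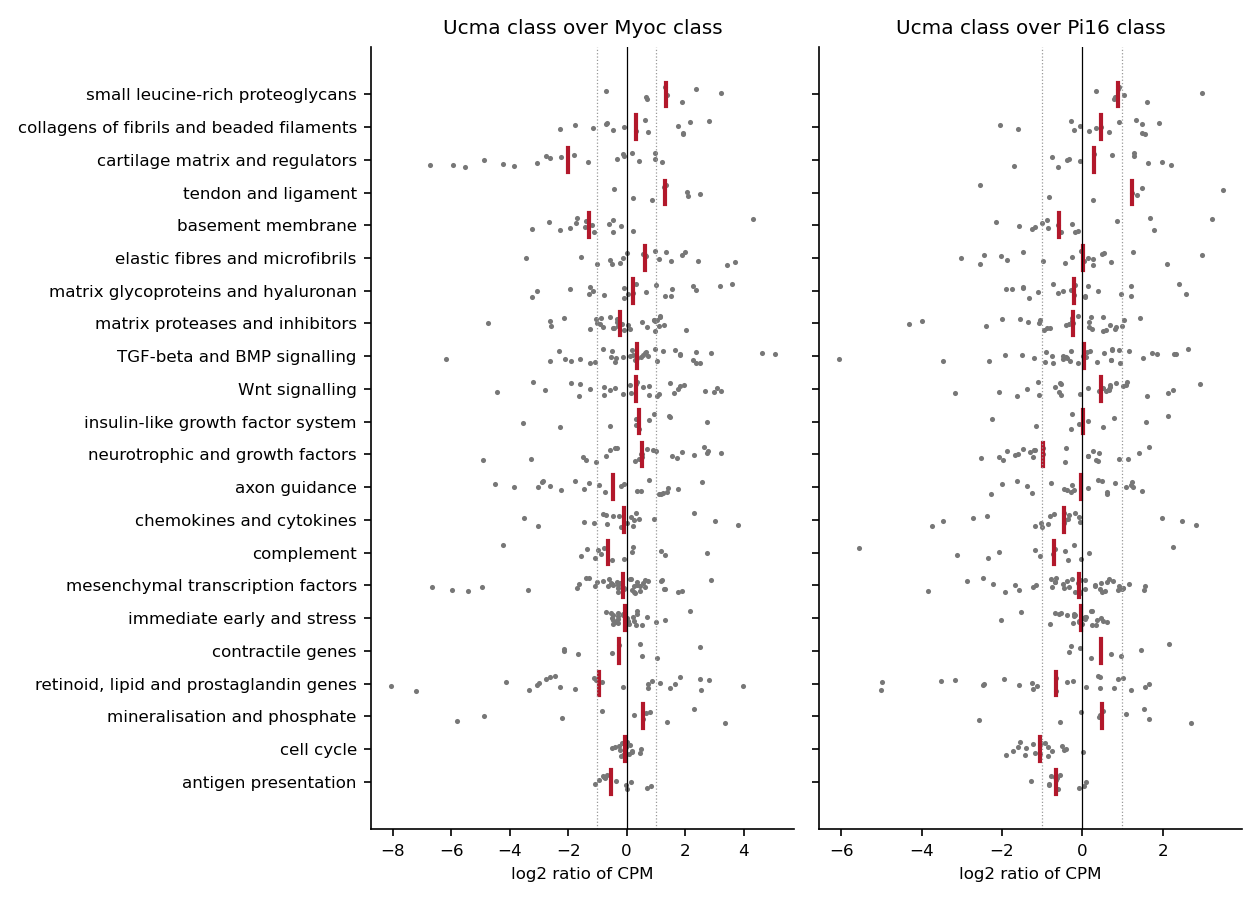
Log2 ratio of CPM in the Ucma class over the Myoc class (left) and over the Pi16 class (right) for every measured gene of the 22 pathway lists, with the list median as a red bar and 2-fold lines dotted. The proteoglycan and tendon medians lie at 1.34 and 1.31 over the Myoc class, the basement membrane median at -1.28 and the cartilage median at -2.01.

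TGF-beta and BMP signalling genes went both ways. Over the Myoc class 12 of 37 were higher and 8 lower (median 0.34), and over the Pi16 class 7 of 36 were higher and 6 lower (median 0.05). The secreted antagonists Grem1 (6.27, 0.187 and 1.25 CPM in the Ucma, Myoc and Pi16 classes, 5.07 and 2.32), Nog (2.21, 0.299 and 0.663 CPM, 2.88 and 1.73) and Fstl3 (44.2, 12.4 and 12.1 CPM, 1.84 and 1.87) were higher than in both. Grem1 came from 55 members, and 10 of them held 40.7% of its UMIs. The ligand genes Bmp7, Bmp3 (0.522, 3.21 and 5.75 CPM), Bmp2 (13.4, 49.95 and 66.7 CPM) and Gdf15 (3.19, 13.9 and 7.37 CPM) were lower than in both. Another ligand gene, Bmp4, stood at 272 CPM in the Ucma class, 56.0 CPM in the Myoc class and 164 CPM in the Pi16 class (2.28 and 0.73), and Tgfb3 at 148, 26.1 and 77.0 CPM (2.50 and 0.94).

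Of the Wnt genes, 11 of 30 were higher and 7 lower over the Myoc class (median 0.33), and 7 of 28 were higher and 6 lower over the Pi16 class (median 0.46). The secreted Wnt-binding proteins Sfrp4 (4543, 704 and 2886 CPM), Sfrp1 (918, 115 and 690 CPM) and Sfrp2 (622, 66.9 and 415 CPM) were 2-fold higher over the Myoc class and not over the Pi16 class. The ligand gene Wnt16 (1.28, 27.5 and 1.92 CPM) and the pathway inhibitor gene Nkd2 (2.38, 21.9 and 5.08 CPM) were lower over the Myoc class, and Nkd2 over the Pi16 class too. Lrp6, a Wnt co-receptor, was the gene of the list higher than in both (39.6, 10.1 and 18.6 CPM, 1.97 and 1.09). In the insulin-like growth factor system, 3 of 11 were higher and 2 lower over the Myoc class (median 0.41), and 2 of 10 were higher and 2 lower over the Pi16 class (median 0.02). The binding protein genes Igfbp3 (214, 31.6 and 71.3 CPM) and Igfbp7 (5780, 2103 and 1313 CPM) were higher than in both. Igfbp6 stood at 13789, 4954 and 7989 CPM (1.48 and 0.79), and Igfbp5 at 1633, 1297 and 7779 CPM (0.33 and -2.25).

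Neurotrophic and growth factor genes were higher than the median gene over the Myoc class, with 8 of 25 higher and 5 lower (median 0.53), and lower over the Pi16 class, with 3 of 25 higher and 11 lower (median -0.97). Fgf9 (17.3, 1.83 and 6.48 CPM, 3.24 and 1.42) and Artn, artemin, a ligand of the GDNF family (7.95, 1.27 and 2.505 CPM, 2.65 and 1.67), were higher than in both. Ptn, pleiotrophin, stood at 4.64 CPM in the Ucma class, 141 CPM in the Myoc class and 18.1 CPM in the Pi16 class (-4.92 and -1.96). Its value over the Pi16 class became 0.065 once barcodes with markers of other cell types were left out. Pdgfd (12.8, 36.2 and 53.9 CPM) was lower than in both.

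Of axon guidance genes, 7 of 24 were higher and 10 lower over the Myoc class (median -0.46), and 5 of 22 were higher and 5 lower over the Pi16 class (median -0.03). The receptor gene Ephb2 (45.1, 7.62 and 19.2 CPM, 2.57 and 1.24), the ligand gene Slit2 (6.15, 2.35 and 2.21 CPM) and the netrin receptor gene Unc5b (10.4, 3.92 and 4.94 CPM) were higher than in both. Efnb2 (2.73, 62.2 and 11.0 CPM, -4.51 and -2.01), Robo2 (0.929, 5.75 and 2.43 CPM) and Plxna2 (1.68, 5.79 and 5.16 CPM) were lower than in both. Sema3c, a secreted semaphorin, stood at 244, 114 and 585 CPM (1.09 and -1.26).

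Chemokine and cytokine genes had 3 of 20 higher and 4 lower over the Myoc class (median -0.10) and 3 of 21 higher and 7 lower over the Pi16 class (median -0.47). Ccl19, a lymphoid chemokine, was higher than in both at 1.57, 0.0747 and 0.147 CPM, but had 27 UMIs in all, 63.0% of them in 10 members. Ccl7 (94.3, 778 and 215 CPM) was lower than in both, Ccl11, eotaxin, stood at 17.5, 15.1 and 236 CPM, and Cxcl13 at 0.755, 2.09 and 8.399 CPM. Complement genes had 3 of 14 higher and 4 lower over the Myoc class (median -0.65), and 1 of 14 higher and 6 lower over the Pi16 class (median -0.71). C7, a terminal complement component, stood at 186, 27.7 and 167 CPM (2.74 and 0.16), Clu, clusterin, at 20.1, 377 and 23.3 CPM, and C2 at 2.44, 5.16 and 12.4 CPM. Antigen presentation genes had 0 of 12 higher and 1 lower over the Myoc class (median -0.52) and 0 of 12 higher and 1 lower over the Pi16 class (median -0.65). Cd74 stood at 246, 476 and 386 CPM in the Ucma, Myoc and Pi16 classes, beside the macrophage marker sums given above, and the part of those transcripts in it was not tested.

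Mesenchymal transcription factors had 7 of 46 higher and 10 lower over the Myoc class (median -0.14), and 5 of 44 higher and 9 lower over the Pi16 class (median -0.09). None of the 44 was higher than in both, which is close to the 2.51% of all genes. Osr2, Tbx18 (6.97, 72.2 and 20.6 CPM), Ebf2 (52.5, 164 and 118 CPM) and Pparg (0.987, 2.39 and 5.53 CPM) were lower than in both, beside 2.86% of all genes. Etv1 (5.92, 184 and 7.44 CPM) and Foxs1 (1.92, 119 and 1.03 CPM) were low in both the Ucma and the Pi16 class. Zfhx4 (110, 15.1 and 118 CPM) and Prrx1 (115, 34.1 and 132 CPM) were shared with the Pi16 class at levels within 2-fold.

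Retinoid, lipid and prostaglandin genes leaned lower, with 8 of 26 higher and 13 lower over the Myoc class (median -0.95) and 4 of 25 higher and 11 lower over the Pi16 class (median -0.65). Ptgds, the lipocalin-type prostaglandin D synthase, stood at 1.45 CPM in the Ucma class, 25.4 CPM in the Myoc class and 46.3 CPM in the Pi16 class (-4.13 and -4.99). Unthinned, it was found in 0.949% of members, 3.32% of Myoc class cells and 0.576% of Pi16 class cells, so its levels rest on few cells. In the members, 13 of its 25 UMIs lay in 1 cell. Apoe stood at 516, 4314 and 1535 CPM (-3.06 and -1.57). Aldh1a2, another retinaldehyde dehydrogenase, went the other way from Aldh1a1 and Aldh1a3, at 14.98, 2.54 and 6.48 CPM (2.56 and 1.21). Adh1 and Fabp3 (6.501, 2.05 and 2.06 CPM) were higher than in both as well.

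Cell cycle genes did not pass 2-fold over the Myoc class in either direction (0 of 19, median -0.07), and 11 of 19 were lower over the Pi16 class with 0 higher (median -1.05). Cenpf stood at 6.04, 6.39 and 22.4 CPM in the Ucma, Myoc and Pi16 classes, and Cdk1 at 4.06, 4.22 and 13.3 CPM. These levels rest on few cells. Unthinned, Cenpf was found in 1.98% of members and 2.16% of Pi16 class cells, and Cdk1 in 1.26% and 2.16%. In the members, 10 cells held 82.7% of the Cenpf UMIs and 91.4% of the Cdk1 UMIs. Immediate early and stress genes, which can respond to tissue dissociation, had 3 of 26 higher and 0 lower over the Myoc class (median -0.04) and 0 of 26 higher and 2 lower over the Pi16 class (median -0.04). Gadd45g (859, 189 and 725 CPM), Ier3 (483, 197 and 375 CPM) and Egr2 were the 3 higher over the Myoc class, and Ier5 (117, 162 and 481 CPM) and Gadd45a (90.6, 147 and 259 CPM) the 2 lower over the Pi16 class. Contractile genes had 2 of 9 higher and 3 lower over the Myoc class (median -0.27) and 2 of 8 higher and 0 lower over the Pi16 class (median 0.46), and Acta2, smooth muscle actin, was at 2.55, 1.23 and 2.21 CPM.

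Markers of the nerve's own fibroblast layers were checked in the same way. All 10 measured endoneurial markers were at least 2-fold lower over the Myoc class (median -5.49), and over the Pi16 class 0 of 7 were higher and 2 lower (median -0.33). They summed to 353 CPM in the Ucma class, 57840 CPM in the Myoc class, where Apod made up most of the sum, and 620 CPM in the Pi16 class. Epineurial markers gave 6 of 10 higher and 1 lower over the Myoc class (median 1.11), and 0 of 10 higher and 5 lower over the Pi16 class (median -1.13), with sums of 10079, 2542 and 12240 CPM. Sfrp4, Mfap5 (2660, 925 and 5274 CPM) and Dpt (1719, 332 and 2090 CPM) were shared with the Pi16 class within 2-fold, whereas Dpp4, Cd55 and Adamts5 (23.6, 10.9 and 124 CPM) were not. PCOLCE2, which enhances procollagen processing and is spelled in capitals in the files, stood at 135, 43.2 and 662 CPM (1.65 and -2.29). Perineurial markers gave 1 of 11 higher and 8 lower over the Myoc class (median -1.68), and 4 of 10 higher and 0 lower over the Pi16 class (median 0.85), with sums of 245, 805 and 159 CPM. By these lists the Ucma class, like the Pi16 class, was low in most endoneurial markers against the Myoc class. Osr2 was an exception, at 3.54 CPM in the Ucma class and 51.2 CPM in the Pi16 class. The Ucma class carried only some epineurial markers, so it is called by its rule and given no layer.

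The members differed among themselves by which gene of the set led. Ucma was highest in 471 members, Gdf10 in 291, Fmod in 227 and Cilp in 205, and 71 had a tie. The Ucma-highest and Fmod-highest members were deep, with medians of 14792 and 16237 UMIs, against 11731 in the Gdf10-highest and 11726 in the Cilp-highest members, and the part of depth in the differences that follow was not tested. Of 8068 genes measured, 375 were at least 2-fold higher (4.65%) and 234 lower (2.9%) in Gdf10-highest over Fmod-highest members. In Cilp-highest over Fmod-highest members 260 of 7752 were higher (3.35%) and 226 lower (2.92%). In Ucma-highest members 153 of 8812 were higher (1.74%) and 183 lower (2.08%) over Fmod-highest, 150 of 8814 higher (1.7%) and 265 lower (3.01%) over Gdf10-highest, and 172 of 8774 higher (1.96%) and 217 lower (2.47%) over Cilp-highest members. All genes named in the next 3 paragraphs were chosen after their values were seen.

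Collagen I followed this split. Col1a1 stood at 122824 CPM in Ucma-highest and 128660 CPM in Fmod-highest members, against 83718 CPM in Gdf10-highest and 79251 CPM in Cilp-highest members. Col1a2 stood at 1289 and 1311 CPM in the Ucma-highest and Fmod-highest members, and at 858 and 888 CPM in the Gdf10-highest and Cilp-highest ones. Car3, a gene named for the class, was split as well. It stood at 48.8 and 51.8 CPM in Ucma-highest and Fmod-highest members, and 4.99 and 9.37 CPM in Gdf10-highest and Cilp-highest members. Given in the order Ucma-, Fmod-, Gdf10- and Cilp-highest, Kera (74.8, 86.9, 35.8 and 25.2 CPM), Tnc (69.2, 133, 8.8 and 25.2 CPM), Fam180a (112, 206, 65.4 and 57.8 CPM) and Ndufa4l2 (135, 171, 74.3 and 68.4 CPM) lay the same way, with the Ucma-highest and Fmod-highest members above the Gdf10-highest and Cilp-highest ones.

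Other genes ran the opposite way. Gsn, the actin-severing protein gelsolin, stood at 8286 CPM in Ucma-highest and 3164 CPM in Fmod-highest members, against 19130 CPM in Gdf10-highest and 17085 CPM in Cilp-highest members. Eln stood at 429 and 524 CPM in the Ucma-highest and Fmod-highest members, and at 1508 and 2439 CPM in the Gdf10-highest and Cilp-highest ones. Cxcl14 (223 and 287 CPM, against 641 and 646 CPM), Igfbp3 (149 and 119 CPM, against 366 and 295 CPM), Efemp1 (24.2 and 34.9 CPM, against 79.8 and 64.7 CPM), PCOLCE2 (117 and 43.3 CPM, against 212 and 199 CPM), Fst (23.1 and 7.31 CPM, against 58.7 and 76.6 CPM) and the gate gene Pdgfra (99.7 and 72.3 CPM, against 175 and 149 CPM) were likewise higher in the Gdf10-highest and Cilp-highest members. Genes such as Bgn (2466, 2753, 2356 and 2631 CPM in Ucma-, Fmod-, Gdf10- and Cilp-highest members), Mfap5 (2549, 2433, 2818 and 3044 CPM) and Sfrp4 (4355, 4285, 4102 and 5994 CPM) stayed within 1.5-fold of one another.

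Some genes were high in part of the Fmod-highest members, and whether the same cells carried them was not tested. Msln, mesothelin, had 293 UMIs in 17 of the 227 Fmod-highest members, 275 of them in 10 cells, against 2 UMIs in the 471 Ucma-highest members. Sfrp5 stood at 420 CPM in Fmod-highest and 12.0 CPM in Ucma-highest members, with 30 Fmod-highest cells carrying it, and Tagln, a smooth muscle actin-binding protein, at 469 and 10.0 CPM, with 43 cells. The perineurial markers Slc2a1, the glucose transporter GLUT1 (89.5 and 7.88 CPM, 44 cells), Itgb4 (218 and 29.2 CPM, 52 cells) and Cldn1, a tight junction claudin (122 and 30.8 CPM, 79 cells), were higher in the Fmod-highest members as well. Msln over both other classes (3.01 and 3.55) therefore rests on few members. Likewise 1194 of the 1199 Ccl21 UMIs of the Ucma-highest members lay in 1 cell.

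**Figure D5:**
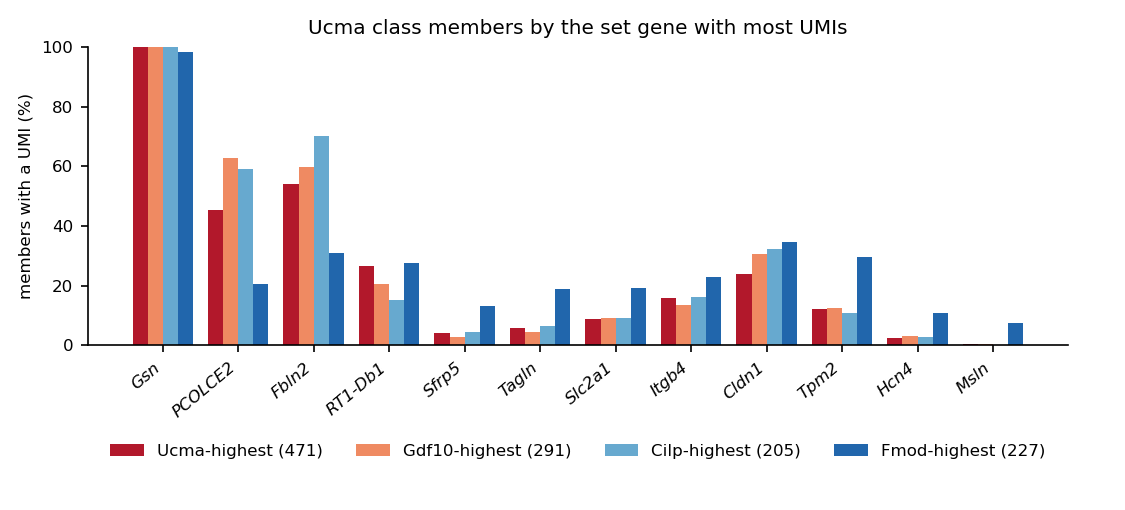
Share of members with a UMI of each gene, unthinned, for members grouped by the gene of the set with most UMIs (number of cells in the legend). Gsn was found in nearly all, Fbln2 and PCOLCE2 least often in Fmod-highest members (30.8% and 20.7%), and Tagln, Slc2a1, Tpm2, Hcn4 and Msln most often there.

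Members were also ordered by their sum of the 4 rule genes, which chose them, so the order is a description. It runs with depth, from a median of 10212 UMIs at sums of 3 to 5 (240 members) over 11924 at 6 to 14 (416) and 14014 at 15 to 29 (282) to 16616 at 30 or more (327), and the part of depth was not tested. Cck stood at 85.0, 122, 200 and 279 CPM along these 4 bins, and Car3 at 3.24, 16.02, 34.9 and 62.4 CPM. Wisp2 stood at 474, 629, 803 and 933 CPM, and Ctgf at 925, 1006, 1249 and 1633 CPM. Efemp1 went down along the same bins, at 78.1, 65.3, 30.04 and 20.5 CPM, as did Cxcl14 at 492, 441, 387 and 307 CPM. Tagln, at 296, 203, 18.4 and 7.80 CPM, was highest in the bins with few rule-gene UMIs, and 10 members held 69.4% of its UMIs. Bgn, at 2247, 2359, 2529 and 2776 CPM, varied least among these.

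The same rule found few cells outside library 1. Library 2 gave 18 of 1028 fibroblast barcodes (1.75%, interval 1.04% to 2.75%), library 3 gave 30 of 1994 (1.505%, 1.02% to 2.14%) and library 4 gave 6 of 1397 (0.429%, 0.158% to 0.932%). These shares lay below the 17.4% of library 1, and fibroblast barcodes had median depths of 1688, 4849 and 12083 UMIs in libraries 2, 3 and 4, against 7686.5 in library 1. Levels were read only in library 3, which had at least 20 cells of each class (30 Ucma class, 329 Myoc class and 228 Pi16 class). There the class rested on other genes of the set. Gdf10 stood at 434 CPM in the Ucma class, 3.67 CPM in the Myoc class and 5.62 CPM in the Pi16 class, while Ucma had 3 UMIs in the 30 cells. The class set against it lacked its naming gene as well, with 0 Myoc UMIs in its 329 cells, which were chosen by Thbs4 (1394 UMIs), Col9a1 (485) and Steap4 (422).

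Cells of library 3, chosen there by the same rule, give a second reading of the named genes, at a counting error set by 30 cells. Over the Myoc class of library 3, 580 of 6868 genes were higher (8.44%) and 457 lower (6.65%), and over the Pi16 class 497 of 7358 were higher (6.75%) and 368 lower (5%). Of the 15 genes named as higher in library 1, 4 were measured over the Myoc class and 7 over the Pi16 class, and Cck and Esm1 were 2-fold higher over both. Others went the other way, Hbb at 438 CPM in the Ucma class and 1654 CPM in the Myoc class (-1.92, counting interval -2.22 to -1.62), and Cryab at 13.5 CPM in the Ucma class and 89.1 CPM in the Pi16 class (-2.72, interval -5.01 to -1.15). Cck stood at 212 CPM in the Ucma class, 7.35 CPM in the Myoc class and 44.1 CPM in the Pi16 class of library 3 (4.85, counting interval 3.97 to 5.83, and 2.27, interval 1.74 to 2.78). Esm1 stood at 126, 4.72 and 33.3 CPM (4.74, interval 3.62 to 6.01, and 1.92, interval 1.25 to 2.57). Wisp2, the most abundantly counted of the 15 in library 1, had 0 UMIs in the 30 cells. The Myoc class had 1 Wisp2 UMI and the Pi16 class 38 (16.4 CPM). The upper counting limit of its log2 ratio over the Pi16 class was 0.09, so a level below that of the Pi16 class is not settled.

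Of the 15 genes named as lower, 11 were measured over the Myoc class of library 3 and 4 were 2-fold lower (Dpp4, Efemp1, Il33 and Osr2), while Timp4 was higher. Over the Pi16 class 10 were measured and 6 were lower, among them Bmp7, Efemp1, Olfml2a, Sbsn and Timp4. Efemp1 was thus lower over both, at 27.1 CPM in the Ucma class, 60.3 CPM in the Myoc class and 481 CPM in the Pi16 class (-1.15, interval -2.63 to 0.01, and -4.15, interval -5.60 to -3.02). Dpp4 and Bmp7 had 0 UMIs in the 30 cells. Over the Myoc and Pi16 classes, the upper counting limits of their log2 ratios were -1.75 and -0.49 for Dpp4. For Bmp7 they were 0.33 and -1.23. Collagen I did not stand out there, with Col1a1 at 11074 CPM in the Ucma class, 14185 CPM in the Myoc class and 7593 CPM in the Pi16 class (-0.36 and 0.54). Tnc (583, 18.4 and 240 CPM, 4.99 and 1.28) and Thbs2 (596, 65.6 and 274 CPM, 3.18 and 1.12) were 2-fold higher over both classes in library 3, as in library 1. Fibin (113, 65.6 and 31.2 CPM, 0.78 and 1.86) and Dkk3 (122, 54.0 and 152 CPM, 1.17 and -0.32) were not, unlike in library 1. Igfbp3 stood at 352, 1076 and 131 CPM (-1.61 and 1.43), below the Myoc class here and above it in library 1. Apod stood at 402 CPM in the Ucma class and 38.1 CPM in the Pi16 class, the reverse of library 1. Contractile genes were high in the same 30 cells, Tagln at 1445, 56.1 and 459 CPM (4.69 and 1.66) and Acta2 at 262, 13.1 and 70.5 CPM (4.32 and 1.89), although Acta2 was 2.55 CPM in the members of library 1. The cell cycle genes Cdk1 (163, 52.5 and 84.4 CPM, 1.63 and 0.95) and Cenpf (154, 31.5 and 55.4 CPM, 2.29 and 1.47) stood higher there too, and the part of these transcripts in the library 3 values was not tested. Bgn stood at 1996, 605 and 1073 CPM (1.72 and 0.90), Eln at 1337, 120 and 1349 CPM (3.48 and -0.01) and Igfbp5 at 890, 746 and 9112 CPM (0.25 and -3.36), each on the same side of 2-fold as in library 1 except Bgn over the Pi16 class.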

How the data were processed

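The deposited values were UMI counts in 1 matrix of 25399 genes and 41444 barcodes (75493450 entries, 336170988 UMIs). The authors made them with Cell Ranger 3.1.0, per the file headers. Rnor_6.0 is the build in the submitters' processing notes, which list Seurat and CASAVA 1.8 as well; filters and doublet removal are not given in the sources used here. Rows with 1 of 121 repeated gene symbols were summed.

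Fibroblast classes were formed by the marker sums given above, and UMIs were summed per class. A gene was measured with at least 20 UMIs on one side, a side under 3 UMIs was set to 3, and called means past 2-fold. The 95% intervals, Clopper-Pearson for shares and conditional binomial for ratios of counts, are exact and cover counting error only; at 20 UMIs they are wide. Each class is 1 library, so no test was run. The ratio and its interval were checked on simulated class sums with counting error only. Such sums follow the model of the interval and lack the spread between cells, so they cannot test it for genes like Hbb. Doublets were kept; Scrublet (scanpy 1.11.5) called 395 library 1 barcodes (4.02%), 52 of them members, and their removal is an alternative. Figures used matplotlib 3.10.9, and tables pandas 2.3.3 with scipy 1.17.1 and numpy 2.4.6 (Python 3.11.15).

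Genes eligible for naming were found in at least 10% of unthinned cells of the class where highest, a share that deep cells reach more readily. The 15 highest and 15 lowest against both classes, by the smaller ratio, had counting intervals that leave out 0 in both contrasts. The 5 further highest and lowest per contrast had intervals that leave out 0 in that contrast. Up to 4 per list were added by the mean of both ratios. Other list members are named to account for a list's counts, after their values were seen. Of 543 pathway genes in 22 lists, 523 were found under the listed symbol. The members and lists were chosen with earlier results of these data known. One gene that the naming rule returned is not reported here.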

Additional observations from a re-analysis of the deposited data

How the results depend on the processing

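No paired analysis was possible because each group has 1 library and the labels give no replicate numbers. The results were recomputed under 16 alternatives, 14 planned and 2 added after seeing the data (members with another set at 3 or more removed, and without the member richest in haemoglobin). With a set sum of at least 10 the class held 802 members (11.04% of fibroblast barcodes), and without mixed cells 709. At least 100 UMIs per gene, which leaves fewer genes to test, gave 533 higher and 865 lower over the Myoc class, and 289 higher and 542 lower over the Pi16 class. At least 5 UMIs gave 1525 lower, thinning to 2000 UMIs gave 319 higher and centring on the median gene gave 589 lower over the Pi16 class. The other counts stayed within 1.5 times those reported.

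Hbb turned to -0.17 over the Myoc class and -0.21 over the Pi16 class without Scrublet doublets, to -0.092 and -0.16 without barcodes carrying markers of other cell types, to -0.019 and -0.15 without mixed cells, and to -1.12 and -0.16 without 1 member. Ptn over the Pi16 class became 0.065 without barcodes carrying other markers. Among values of named genes past 2-fold as reported, no other turned. Smaller values were not checked for a change of sign. Of 3805 values of named genes 3537 stayed within 1.5-fold, 196 moved farther from 0 and 63 nearer, and of 704 list medians 694 stayed within 1.5-fold. The moves were uneven over the alternatives. With thinning to 2000 UMIs, 204 values of named genes could be read. Of these 158 stayed within 1.5-fold, 25 moved farther from 0 and 21 nearer. Without mixed cells 161 of 236 stayed, 62 moved farther and 11 nearer. Depth limits genes with few UMIs, and in library 3 nearly all values rest on 30 cells. The part of depth, doublets and free RNA in the class contrasts was not tested beyond these alternatives.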
